A study of Mus musculus with 20 samples.

Results

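The 39 protein-coding Hox genes of the mouse were followed through cultures of primary renal tubular epithelial cells. They were taken as every gene ID of the deposited count table whose symbol is Hox, a cluster letter from a to d and a number, which gave 39 of 55891 IDs (11 of cluster A, 10 of cluster B, 9 of cluster C and 9 of cluster D). The cultures came from kidneys of the strain labelled B6.129-Ptprz1tm1Nmo, which carries an altered allele of Ptprz1, a receptor-type tyrosine phosphatase. Ptprz het (heterozygous) and Ptprz KO (knockout) cultures were left untreated or received LPS, a bacterial cell wall product, at 100 ng/mL together with IFNγ, an inflammatory cytokine, at 10 ng/mL for 24 h. Each of the 4 groups (het control, het LPS+IFNγ, KO control, KO LPS+IFNγ) held 5 libraries. All groups grew in the same serum and hormone medium, all carry at least 1 altered allele, and the labels list no wild-type cells and no ages. The labels tie the 20 libraries to 10 animals, each with 1 control and 1 stimulated library. Animals 1, 2, 4 and 9 are listed as het, animals 3, 6, 8 and 10 as KO, and animals 5 and 7 under both genotypes: the control library of animal 5 is KO and its stimulated library het, and the reverse holds for animal 7.

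Total counts per library ran from 12899528 to 20411411, of which 6712 to 14146 were Hox counts. Ptprz1 itself had at most 4 counts in a het library and up to 7 in a KO library, so it could not serve as a check of the genotype labels. As a check of the stimulus, Nos2, the inducible nitric oxide synthase, stood at or below 0.219 CPM (counts scaled to the library total after TMM scaling) in 8 control libraries and at 1256 to 3567 CPM in 8 stimulated ones. The other 4 libraries went against their label: the libraries labelled control of animals 4 (het) and 8 (KO) held 82.9 and 203 CPM, and the libraries labelled LPS+IFNγ of those 2 animals held 0. Stimulus results are therefore given with all 20 libraries as labelled and with the 16 others. The labelled cell type was checked on its markers. All 11 listed tubular epithelial genes had a median of at least 1 CPM. However, Cdh1 and Epcam, the epithelial adhesion genes, were below 2 CPM in all 6 libraries of animals 2, 6 and 10. Of the 15 listed proximal tubule genes, 5 had a median of at least 1 CPM: Ass1 (114 CPM), Lrp2 (62.0), Gatm (16.8), Cubn (6.5) and Aqp1 (1.56). The proximal tubule phosphate transporter Slc34a1 was at most 0.769 CPM in any library.

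Hox genes encode homeodomain transcription factors that give cells their address along the body axis and along limbs and ducts. They lie in 4 clusters on separate chromosomes (A on 6, B on 11, C on 15, D on 2), genes of the same number in different clusters are paralogues, and the order within a cluster follows the order in which they are used from head to tail, with the low numbers anterior. Hoxa11, Hoxc11 and Hoxd11 act together in the first outgrowth of the kidney, and cells taken into culture often keep the Hox pattern of their origin.

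The sequence just before the transcription start was matched by symbol for 22 of the 39 genes (RefSeq, GRCm38.p6). Many of these promoters are rich in CpG, the dinucleotide that unmethylated promoter islands hold: the median number of CpG in the 250 bases before the start was 12.5 for the 24 Hox promoters and 6 over all 32851 promoters of the table. With the mean taken for Hoxa10 and Hoxd11, which have 2 promoters each, the 16 of these genes at or above 1 CPM in the cultures held 3 to 28 (median 12.5) and the 6 others 7 to 35 (median 18), so the ranges overlapped. Of the letters searched on both strands, TGATNNAT, the Hox-Pbx site, was in 7.68% of all promoters and in those of 4 Hox genes (Hoxa2, Hoxb1, Hoxb8, Hoxd11). AGGTCA, the core of a retinoic acid response element, was in 14.02% and in 6 (Hoxb4, Hoxc4, Hoxd3, Hoxd4, Hoxd8, Hoxd10). TTTATG, the Cdx site, was in 10.8% and in 5 (Hoxa7, Hoxb8, Hoxd3, Hoxd4, Hoxd11). TTCNNNGAA, the GAS site of interferon signalling, was in 7.02% of all promoters and in 1 Hox promoter, that of Hoxd4. CCAAT, the CCAAT box, was in 33.85% of all promoters and in those of 14 of the 22 Hox genes. TATAAA, the TATA box, was in 12.37% and in 4 (Hoxa10, Hoxb8, Hoxd4, Hoxd13). Matches are descriptions of these letters only. The 5 promoters shown are those of genes that the values below turn on: Hoxb4, which differed between animals, Hoxb8, which was lower with the stimulus in all 6 animals compared within 1 genotype, Hoxa7, which had the lowest p for the stimulus, and Hoxb1 and Hoxd12, which had no counts. They lie at chr11:96318017-96318266 (plus strand), chr11:96281655-96281904 (plus strand), chr6:52218574-52218823 (minus strand), chr11:96365508-96365757 (plus strand) and chr2:74674763-74675012 (plus strand), in that order. They are printed 5′ to 3′ on the strand of the gene with each CpG in capitals. The CpG number 14, 12, 7, 7 and 10.
Hoxb4: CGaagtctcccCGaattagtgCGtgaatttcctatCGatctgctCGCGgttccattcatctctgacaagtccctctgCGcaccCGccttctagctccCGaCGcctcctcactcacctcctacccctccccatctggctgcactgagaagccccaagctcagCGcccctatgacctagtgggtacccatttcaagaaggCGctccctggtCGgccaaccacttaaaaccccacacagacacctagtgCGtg
Hoxb8: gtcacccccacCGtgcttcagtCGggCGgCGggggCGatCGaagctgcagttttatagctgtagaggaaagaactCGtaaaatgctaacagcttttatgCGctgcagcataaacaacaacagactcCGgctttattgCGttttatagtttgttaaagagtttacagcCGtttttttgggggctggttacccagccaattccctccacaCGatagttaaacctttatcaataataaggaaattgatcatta
Hoxa7: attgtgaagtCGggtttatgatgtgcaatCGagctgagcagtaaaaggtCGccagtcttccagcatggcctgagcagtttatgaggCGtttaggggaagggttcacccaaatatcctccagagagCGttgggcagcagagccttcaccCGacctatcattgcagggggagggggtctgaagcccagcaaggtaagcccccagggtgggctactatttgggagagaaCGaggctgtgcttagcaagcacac
Hoxb1: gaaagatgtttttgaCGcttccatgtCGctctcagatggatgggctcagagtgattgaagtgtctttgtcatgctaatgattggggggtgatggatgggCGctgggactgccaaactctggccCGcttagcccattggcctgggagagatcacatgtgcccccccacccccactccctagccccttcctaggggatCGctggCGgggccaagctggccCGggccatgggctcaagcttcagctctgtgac
Hoxd12: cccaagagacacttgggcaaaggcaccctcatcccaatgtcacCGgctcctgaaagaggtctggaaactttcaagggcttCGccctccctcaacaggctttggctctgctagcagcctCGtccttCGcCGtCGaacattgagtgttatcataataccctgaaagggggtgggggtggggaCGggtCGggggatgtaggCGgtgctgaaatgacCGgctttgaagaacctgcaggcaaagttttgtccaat

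Every cluster was expressed over a long stretch, and the genes of its posterior end did not reach 1 CPM. Of the 39 genes, 30 had a median of at least 1 CPM over the 20 libraries, 6 had counts below that level and 3 had none. All 30 lay among the 33 members of paralogue groups 1 to 11, and none of the 6 members of groups 12 and 13 reached the level. Cluster A had 10 of its 11 genes expressed, cluster B 8 of 10, cluster C 7 of 9 and cluster D 5 of 9. The 3 genes without a count in any library were Hoxb1, a gene of the anterior hindbrain, and the posterior genes Hoxc12 and Hoxd12; a count of 0 allows up to 0.147 to 0.233 CPM in a single library (3 counts of its total, counting error only).

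The trace genes were Hoxd1, Hoxd3 and the 4 genes of group 13, the most posterior group, which patterns the limb tip and the genital and cloacal region. Summed over the 20 libraries they had 6 (Hoxd1), 226 (Hoxd3), 21 (Hoxa13), 49 (Hoxb13), 113 (Hoxc13) and 7 counts (Hoxd13). The highest single value was that of Hoxc13, 2.18 CPM (36 counts) in the het LPS+IFNγ library of animal 1, with a median of 0.236 CPM. Hoxb13 was at 0.243 to 0.716 CPM in the 4 libraries of animals 1 and 9 and at 0 to 0.230 CPM in the 16 others. Hoxd3 shares 62.4% of its exon bases with Hoxd4 or with the overlapping transcript Gm28230 on the same strand, and Hoxd4 shares 52.3%, so the split of reads between these genes is uncertain.

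Levels were compared between genes per kilobase of exon. Hoxb9 was the highest Hox gene in all 20 libraries, at a median of 59.0 CPM per kb (30.9 to 75.6). It was followed by Hoxc10 at 29.2 (12.9 to 41.0), Hoxb7 at 19.9 (15.8 to 32.2), Hoxa10 at 16.1 (5.97 to 22.2), Hoxb6 at 15.1, Hoxc6 at 12.8, Hoxb8 at 11.5 and Hoxa7 at 10.2 CPM per kb. Hoxc10 was second in 14 libraries and Hoxb7 in 5. The ranges of neighbouring genes overlapped, those of Hoxb9 and Hoxc10 included. Hoxb9 was set apart by its rank within each library. The lowest of the 30 were Hoxc5 at 1.098, Hoxa2 at 0.952 and Hoxd11 at 0.612 CPM per kb. The top of each cluster was thus Hoxa10 in A, Hoxb9 in B, Hoxc10 in C and Hoxd8 (7.98 CPM per kb) in D.

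Cluster B gave the largest part of the summed Hox level per kilobase in all 20 libraries, with a median share of 47.7% (40.8% to 63.9%). Cluster C gave 22.0% (11.6% to 29.1%), cluster A 20.3% (15.7% to 23.1%) and cluster D 9.02% (5.70% to 11.8%), and cluster D was the smallest in every library. Cluster C ranked above cluster A in 14 libraries and below it in 6. By paralogue group, group 9 held a median of 29.6% and group 10 held 20.02%, followed by group 6 at 11.9%, group 7 at 11.5% and group 8 at 9.41%. Among the others, group 5 was at 4.73%, group 4 at 4.12%, group 3 at 3.05%, group 2 at 2.34% and group 11 at 2.30%. The plot of levels by cluster and paralogue group shows the block of higher values from group 6 to group 10.

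**Figure D1:**
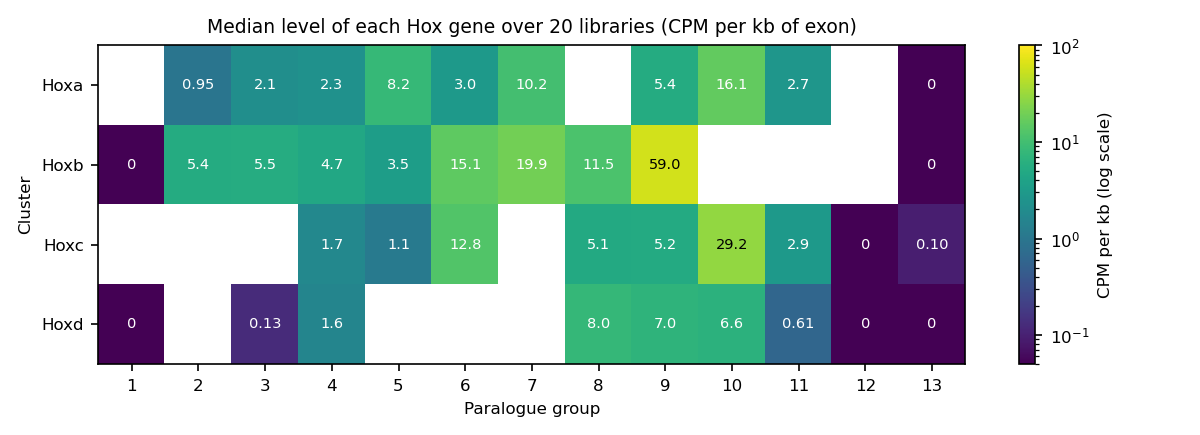
Median level over 20 libraries of 38 of the 39 Hox genes in CPM per kilobase of exon, by cluster (rows) and paralogue group (columns); colour is on a log scale with values under 0.05 drawn at that level, and white fields have no gene or one not shown. Hoxb9 at 59.0 and Hoxc10 at 29.2 are the highest, and groups 12 and 13 are at or near 0.

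The sum over the Hox genes was between 407 and 774 CPM (median 662). The typical spread of a Hox gene was above that of all genes tested, which were not matched for level. The median SD of log2(CPM + 0.5) over the 20 libraries was 0.52 for the 31 Hox genes tested and 0.34 for all genes tested, and the median biological coefficient of variation in the edgeR fit was 0.365 against 0.254. The steadiest gene was Hoxa9, which ran from 24.4 to 39.0 CPM (a range of 1.60-fold). Hoxd11 had the largest SD on that scale (1.22), from 0.182 to 9.94 CPM. Differences between animals held a median of 79.5% of a Hox gene's variance over the 20 libraries (on the log2 scale), against 66.5% over all genes tested, from 31.1% to 98.2% for single Hox genes.

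An F test of the animal ID in the edgeR quasi-likelihood model, beside the 4 groups and with Benjamini-Hochberg adjustment over all genes, called 17 of 31 Hox genes tested, where 20.2% of all 14568 genes were called (7 residual degrees of freedom). All 7 expressed genes of cluster C were among the 17, with 5 genes of cluster B (Hoxb2, Hoxb4, Hoxb5, Hoxb6, Hoxb9), 2 of cluster A (Hoxa3, Hoxa11) and 3 of cluster D (Hoxd9, Hoxd10, Hoxd11). The lowest adjusted p values of this edgeR test were those of Hoxd11 (0.000418), Hoxc8 (0.000933), Hoxb2 (0.000979), Hoxc6 (0.00111) and Hoxb4 (0.00203). Without the 4 libraries that go against their label 18 of 31 were called, where 28.8% of all genes were, and 16 of 31 without animals 5 and 7, where 20.1% were. Without animals 1 and 9 the count was 4 of 31 (Hoxa11, Hoxb2, Hoxb4, Hoxd11), where 9.38% of all genes were called.

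The values of the 6 genes plotted by animal are given here as the control and then the stimulated library of each animal, as labelled. Hoxc8, a gene of the thoracic part of the axis, was at 2.64 and 3.58 CPM in animal 1, 14.7 and 11.9 in animal 2, 9.44 and 6.49 in animal 3, 14.02 and 15.8 in animal 4 and 15.6 and 10.4 in animal 5. In the other 5 animals it was at 16.4 and 12.3 CPM in animal 6, 22.9 and 20.1 in animal 7, 15.2 and 17.2 in animal 8, 2.87 and 3.38 in animal 9 and 21.2 and 20.9 in animal 10. The 4 libraries of animals 1 and 9 were the lowest, at 2.64 to 3.58 CPM, and did not overlap the 16 others, at 6.49 to 22.9 CPM. Hoxc6, its neighbour in the cluster, was at 13.1 and 10.1 CPM in animal 1, 43.5 and 28.4 in animal 2, 28.3 and 21.9 in animal 3, 36.9 and 41.1 in animal 4 and 37.1 and 28.7 in animal 5. In the other 5 animals it was at 42.6 and 31.4 CPM in animal 6, 41.1 and 32.4 in animal 7, 28.4 and 30.3 in animal 8, 12.2 and 8.87 in animal 9 and 48.4 and 38.1 in animal 10. Here too the same 4 libraries were the lowest, at 8.87 to 13.1 CPM against 21.9 CPM and more in the others.

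Hoxd11, which acts in early kidney outgrowth, was at 0.447 and 0.182 CPM in animal 1, 7.47 and 7.15 in animal 2, 1.57 and 1.55 in animal 3, 2.23 and 2.08 in animal 4 and 2.93 and 3.32 in animal 5. In the other 5 animals it was at 9.94 and 7.47 CPM in animal 6, 4.27 and 3.52 in animal 7, 1.62 and 0.842 in animal 8, 0.359 and 0.191 in animal 9 and 4.67 and 4.53 in animal 10. Animals 2 and 6 were high at 7.15 CPM and more, animal 10 and animal 7 came next, and animals 1 and 9 were below 0.5 CPM, which is 10 counts or fewer in a library. Hoxb9, the highest Hox gene, was at 106 and 79.7 CPM in animal 1, 194 and 158 in animal 2, 193 and 153 in animal 3, 155 and 173 in animal 4 and 183 and 160.3 in animal 5. In the other 5 animals it was at 181 and 147 CPM in animal 6, 151 and 151 in animal 7, 140.4 and 150.2 in animal 8, 101 and 86.8 in animal 9 and 164 and 147 in animal 10. It ran from 79.7 to 106 CPM in animals 1 and 9 and from 140 to 194 CPM in all others.

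Hoxb2, Hoxb4 and Hoxb6 of cluster B had another order over the animals. Hoxb4 was at 17.7 and 23.2 CPM in animal 1, 7.98 and 8.48 in animal 2, 14.1 and 11.7 in animal 3, 12.1 and 11.8 in animal 4 and 9.43 and 12.1 in animal 5. In the other 5 animals it was at 8.13 and 7.29 CPM in animal 6, 14.1 and 17.8 in animal 7, 16.8 and 16.3 in animal 8, 19.5 and 25.5 in animal 9 and 8.69 and 7.75 in animal 10. The 3 highest libraries were of animals 1 and 9, and the control library of animal 1 was level with the stimulated one of animal 7. Animals 2, 6 and 10, the ones with Cdh1 and Epcam below 2 CPM, were the lowest, at or below 8.69 CPM. Hoxb2, an anterior gene of the same cluster, was at 26.2 and 26.5 CPM in animal 1, 14.9 and 12.2 in animal 2, 20.6 and 19.5 in animal 3, 15.2 and 14.7 in animal 4 and 18.1 and 15.1 in animal 5. In the other 5 animals it was at 16.8 and 11.6 CPM in animal 6, 24.2 and 24.4 in animal 7, 26.3 and 20.3 in animal 8, 26.04 and 22.7 in animal 9 and 8.11 and 7.58 in animal 10. Animal 10 was lowest, with both of its libraries near 8 CPM, and animals 1, 7, 8 and 9 were at 20.3 CPM or more. Hoxb6 was the only expressed gene with all 4 libraries of animals 1 and 9 above the others, at 35.0 to 45.1 CPM against 21.0 to 34.2 CPM. Hoxb8 was at 29.0 to 56.8 CPM there and at 19.4 to 43.7 CPM in the others, so it overlapped.

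**Figure D2:**
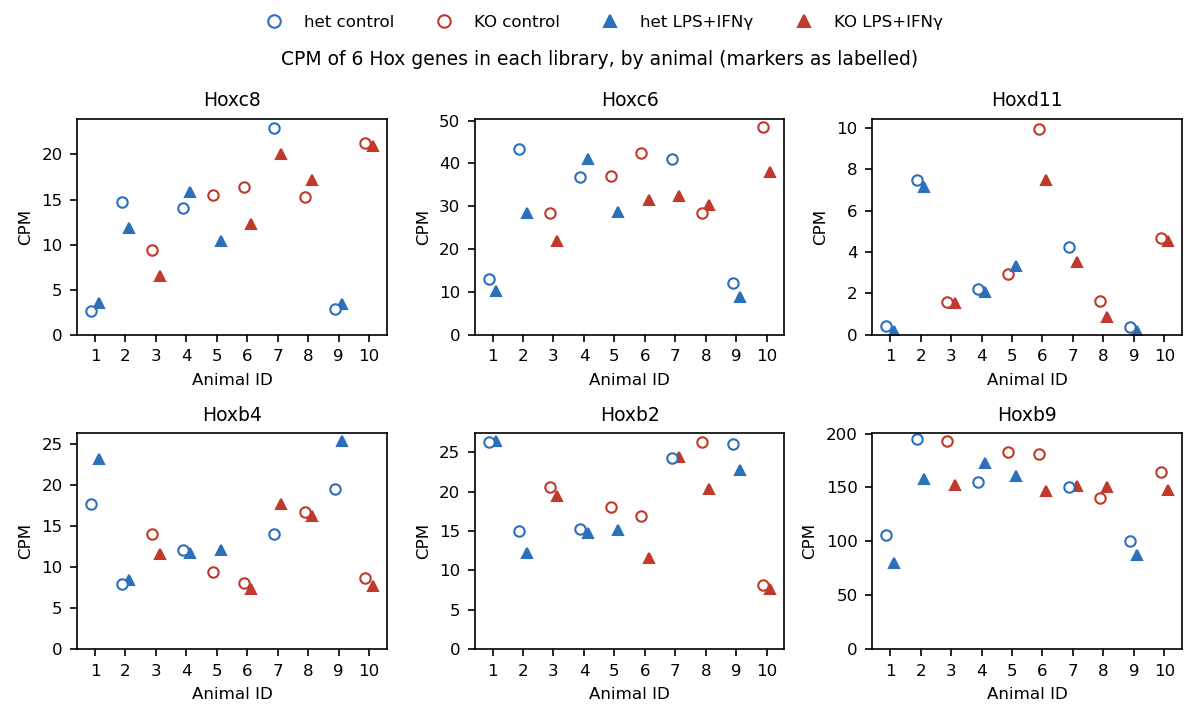
CPM (linear axes from 0) of 6 Hox genes in each of the 20 libraries against animal ID; circles are libraries labelled control, triangles LPS+IFNγ, blue het and red KO. Hoxc8, Hoxc6, Hoxd11 and Hoxb9 are low in animals 1 and 9, and Hoxb4 is high there.

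Animals 1 and 9, both het, were singled out after their values were seen, so their ranges are a description without a test. In both, all 7 expressed genes of cluster C and all 5 of cluster D were below the gene's mean over the 10 animals, and 9 of 10 genes of cluster A were below it. In cluster B, 5 of 8 genes were above the mean in animal 1 and 6 of 8 in animal 9, with Hoxb9 below it in both. Their 4 libraries did not overlap the 16 others in 11 of the 30 expressed genes: 10 were lower (Hoxa2, Hoxa3, Hoxb9, Hoxc4, Hoxc5, Hoxc6, Hoxc8, Hoxc11, Hoxd9, Hoxd11) and Hoxb6 was higher. The share of all genes that separate these libraries was not computed, so the 11 cannot be read as particular to the Hox genes. The share of cluster B was 57.9% to 63.9% in these libraries and 40.8% to 53.8% in the others, and that of cluster C was 11.6% to 16.4% against 17.9% to 29.1%. Animal 10, a KO animal, had all 7 genes of cluster C and all 5 of cluster D above the mean and the highest deviation of any animal in 9 of the 30 genes. In animal 7 all genes of clusters B, C and D were above it.

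**Figure D3:**
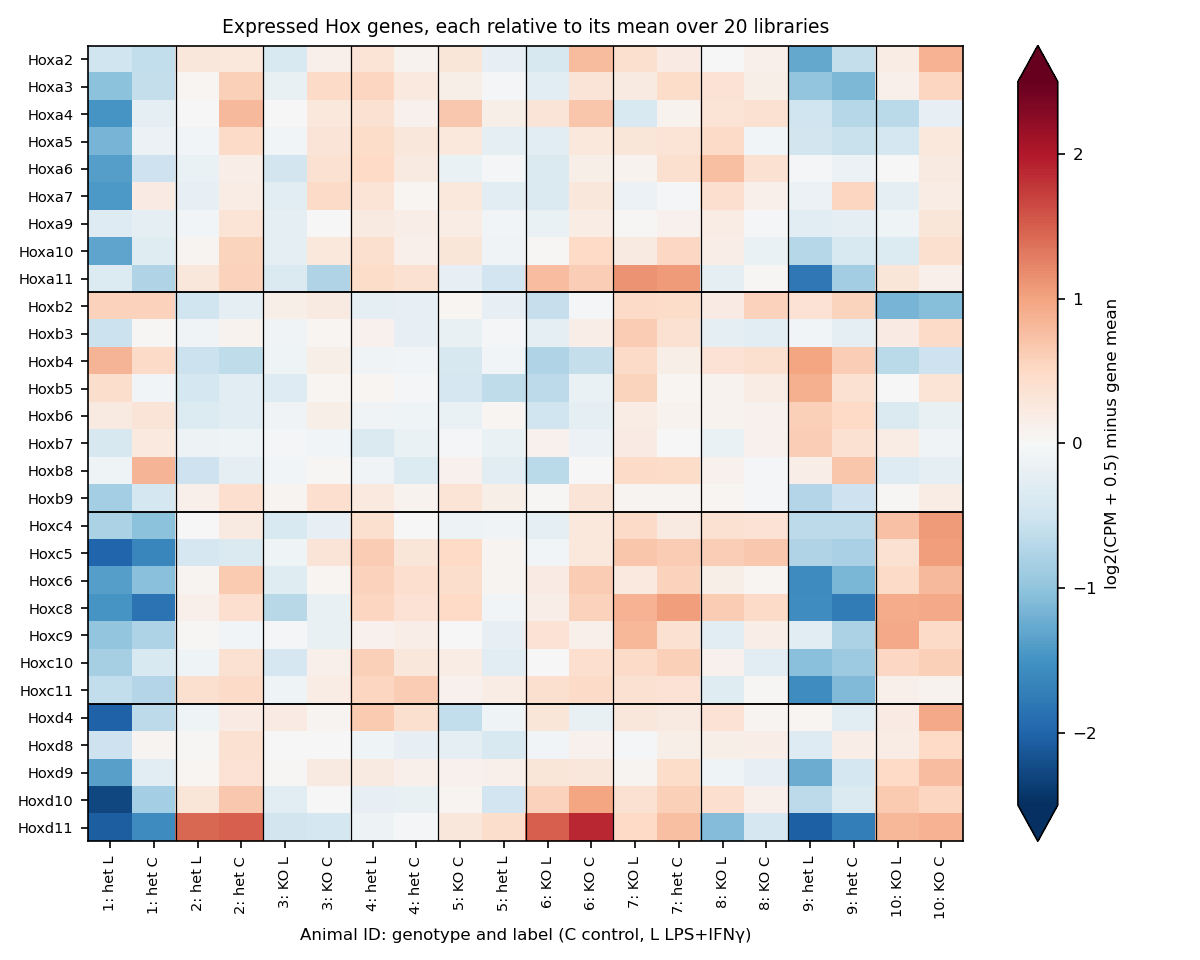
Each of 29 expressed Hox genes (rows, by cluster) in each library (columns, by animal ID), as log2(CPM + 0.5) minus the gene's mean over 20 libraries; red is above the mean and blue below. Columns 1 and 9 are mostly blue in clusters A, C and D and mostly red in cluster B.

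Markers of the tubule segments and of other cells moved with these animals. The sum of the 15 proximal tubule markers was 322 to 913 CPM in the 4 libraries of animals 1 and 9 and 134 to 302 CPM in the others, and 1 to 6 of the 15 were at 0 there against 6 to 9 in the others. Hnf4a, a defining proximal tubule factor, was at 38.4 to 174 CPM against at most 2.91 CPM, and Cdh16, kidney cadherin, at 425 to 791 CPM against 22.9 to 286 CPM. The 12 fibroblast markers summed to 36.7 to 545 CPM against 944 to 14780.3 CPM, with 0 to 3 of them at 0 in any library, and Col1a1, a fibrillar collagen, was at 19.7 to 289 CPM against 458 to 7626 CPM. The 10 leukocyte markers summed to 126 to 347 CPM against 26.8 to 74.6 CPM, and the pan-leukocyte gene Ptprc was at 0.668 to 8.68 CPM against at most 0.518 CPM. The 11 tubular epithelium markers summed to 1596 to 1885 CPM in animals 1 and 9, where none was at 0, and to 327 to 1612 CPM in the others, and Wt1, a factor of the kidney mesenchyme and podocyte, was at 9.51 to 27.8 CPM against 70.1 to 150 CPM. The tubular epithelium sums thus overlapped. The other lists overlapped too: collecting duct at 216 to 237 against 44.4 to 239 CPM, loop and distal tubule at 358.8 to 680.8 against 392.3 to 531.6 CPM, podocyte at 90.2 to 208 against 187 to 553 CPM, and endothelium at 4.02 to 9.39 against 2.11 to 20.7 CPM. The part of cell composition in the Hox differences was not tested, and in bulk RNA fewer cells of a type and less RNA per cell cannot be told apart.

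The stimulus comparison asks whether LPS+IFNγ shifts this pattern. With all 20 libraries as labelled, no Hox gene passed the test. In the mean over genotypes, 0 of 31 were called by edgeR, where 5.02% of all genes were (662 higher and 70 lower), and 2 of 31 had an unadjusted p under 0.05, where 19% of all genes had; DESeq2 called 0 as well, where 8.49% of all genes were. The median log2 fold change was −0.18 over the Hox genes and −0.01 over all genes. Of the Hox values 26 of 31 were negative, where 52.4% of the values over all genes were. Without het LPS+IFNγ replicate 1 (animal 1) the Hox median was −0.09. The Hox gene of lowest p was Hoxa7, with a log2 fold change of −0.41 ± 0.16 (SE), adjusted p = 0.168 in edgeR. Hoxd8 was next at −0.24 ± 0.10 (SE), adjusted p = 0.181. Hoxa10 followed at −0.33 ± 0.19 (SE), adjusted p = 0.354. Within het cultures 0 of 31 were called and 2 had an unadjusted p under 0.05, where 0% and 13.6% of all genes did. The lowest p was that of Hoxd8, at −0.38 ± 0.14 (SE), adjusted p = 0.210. Hoxb8 stood at −0.52 ± 0.23 (SE), adjusted p = 0.322, and Hoxa7 at −0.45 ± 0.23 (SE), adjusted p = 0.413. Within KO cultures 0 of 31 were called and 0 had an unadjusted p under 0.05, where 0% and 8.97% of all genes did. The lowest p was that of Hoxa7, at −0.36 ± 0.23 (SE), adjusted p = 0.725. Hoxa2 stood at −0.61 ± 0.41 (SE), adjusted p = 0.757, and Hoxa9 at −0.18 ± 0.13 (SE), adjusted p = 0.798. DESeq2 called 0 Hox genes in either genotype, where 3.32% of all genes were called in het and 0.789% in KO.

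In the 16 libraries that follow their label, 1 of 31 Hox genes was called in the mean over genotypes, where 15% of all genes were and 4.88% were called lower. This was Hoxa7, a gene of the trunk, which fell, with a log2 fold change of −0.62 ± 0.16 (SE), adjusted p = 0.0143 in edgeR. It was at 31.8, 31.2, 26.96, 39.8 and 28.5 CPM in het control replicates 1 to 5 and at 9.89, 23.8, 22.7, 24.9 and 34.8 CPM in het LPS+IFNγ replicates 1 to 5. The KO control replicates 1 to 5 were at 38.5, 33.2, 33.4, 30.2 and 31.2 CPM and the KO LPS+IFNγ ones at 22.9, 21.1, 24.7, 37.1 and 23.4 CPM. Within each genotype the 4 control libraries that follow their label (replicates 1 to 4 in het; 1, 2, 3 and 5 in KO) lay above the 4 stimulated ones. Hoxd8 came next at −0.30 ± 0.11 (SE), adjusted p = 0.0837. Hoxa9 followed at −0.25 ± 0.09 (SE), adjusted p = 0.0962, and neither passed in edgeR. Within het and within KO cultures alone, edgeR called 0 of 31 in these libraries, where 7.15% and 5.76% of all genes were called; 3 and 2 Hox genes had an unadjusted p under 0.05, where 20.5% and 16.4% of all genes had. DESeq2 on the same libraries called 3 of 31 lower in the mean (Hoxa7, Hoxa9, Hoxd8), where 19.7% of all genes were called and 8.06% lower. It called 2 in het (Hoxa7, Hoxd8), where 11.5% were called, and 0 in KO, where 9.04% were.

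The libraries of 1 animal can be compared directly, since the labels give the animal. Animals 5 and 7 also enter the blocked fits, though their control and stimulated libraries carry different genotype labels. In each of them the stimulus and the genotype label change together, and no blocked fit left them out. With the animal ID as a block in the 16 libraries, edgeR called 11 of 31 Hox genes in the mean over genotypes, all lower, where 33.4% of all genes were called and 16.1% were called lower. The 11 were Hoxa3, Hoxa5, Hoxa7, Hoxa9 and Hoxa10 of cluster A, Hoxb8 and Hoxb9 of cluster B, Hoxc6 and Hoxc10 of cluster C, and Hoxd8 and Hoxd9 of cluster D. The lowest p was that of Hoxc6, with a log2 fold change of −0.41 ± 0.06 (SE), adjusted p = 0.000796. Hoxa10 was at −0.53 ± 0.09 (SE), adjusted p = 0.00228. For Hoxc10 the value was −0.35 ± 0.07 (SE), adjusted p = 0.00588. In het the blocked edgeR fit called 6 of 31 lower (Hoxa7, Hoxa10, Hoxb8, Hoxc6, Hoxd8, Hoxd9), where 18.6% of all genes were called and 7.96% lower. In KO it called 2 lower (Hoxa10, Hoxc6), where 13.5% were called and 5.06% lower. With the block in all 20 libraries 0 of 31 were called, where 0% of all genes were, and 8 had an unadjusted p under 0.05, where 30.5% of all genes had. Without the 4 libraries and animals 1 and 9, with no block, edgeR called 5 genes lower (Hoxa3, Hoxa5, Hoxa7, Hoxa9, Hoxa10), where 15.5% of all genes were called and 5.55% lower.

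By cluster, in the 16 libraries without a block, all 10 values of cluster A were negative (median log2 fold change −0.44), as were 5 of 8 in cluster B (median −0.08), 6 of 7 in cluster C (median −0.31) and 5 of 6 in cluster D (median −0.24). Over all genes 52.6% of the values were negative. Cluster A was also negative in all 10 genes with the 20 libraries as labelled, with a median of −0.26. The log2 fold changes of the 11 genes called with the block ran from −0.24 to −0.65. Whether the clusters differ in their response was not tested.

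**Figure D4:**
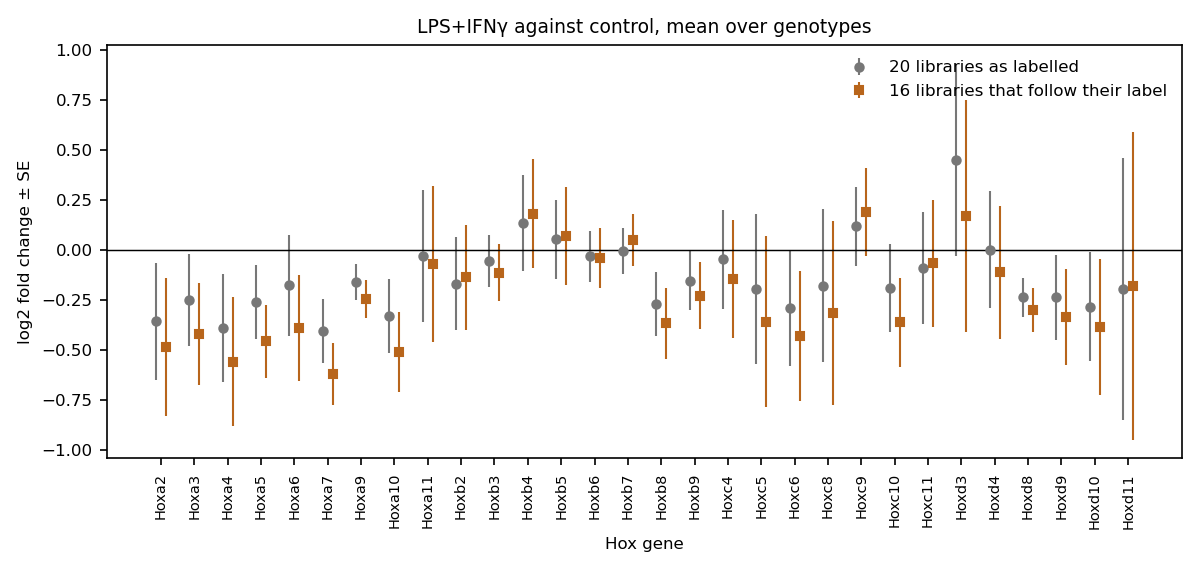
Log2 fold change of LPS+IFNγ against control (mean over genotypes, edgeR) with its SE for 30 of the 31 Hox genes tested; grey points use all 20 libraries as labelled and brown squares the 16 that follow their label. Most points are below 0, all 9 shown of cluster A in both fits, and Hoxa7 at −0.62 in the 16 libraries passed the test.

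Of the 8 animals with both libraries under 1 genotype, 6 follow their labels. In those, 17 to 27 of the 31 Hox genes were lower in the stimulated library, where 50.7% to 53.3% of all genes were. Animal 9, with 17 of 31, was near its share of 53.3% over all genes. The median log2 difference per animal was −0.42 (animal 1), −0.30 (animal 2), −0.25 (animal 3), −0.39 (animal 6), −0.13 (animal 9) and −0.25 (animal 10). The median over all genes was between −0.03 and −0.01. The 9 genes that were lower in the stimulated library of all 6 animals were Hoxa7, Hoxa9, Hoxa10, Hoxb8, Hoxb9, Hoxc6, Hoxc10, Hoxd8 and Hoxd11, where 17.2% of all genes tested were lower in 6 of 6. None was higher in all 6, where 16.6% of all genes were. In animals 4 and 8, whose libraries go against their labels, 23 and 18 of 31 Hox genes were higher in the library labelled LPS+IFNγ, with medians of 0.16 and 0.09. There 8 and 13 Hox genes were lower, where 48.59% and 48.85% of all genes were. Hoxa10 was lower by 0.34 to 1.01 on the log2 scale in the 6 animals and higher by 0.29 and 0.33 in animals 4 and 8. For Hoxb9 the differences were −0.41, −0.30, −0.33, −0.30, −0.21 and −0.16 in animals 1, 2, 3, 6, 9 and 10 and 0.16 and 0.10 in animals 4 and 8.

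**Figure D5:**
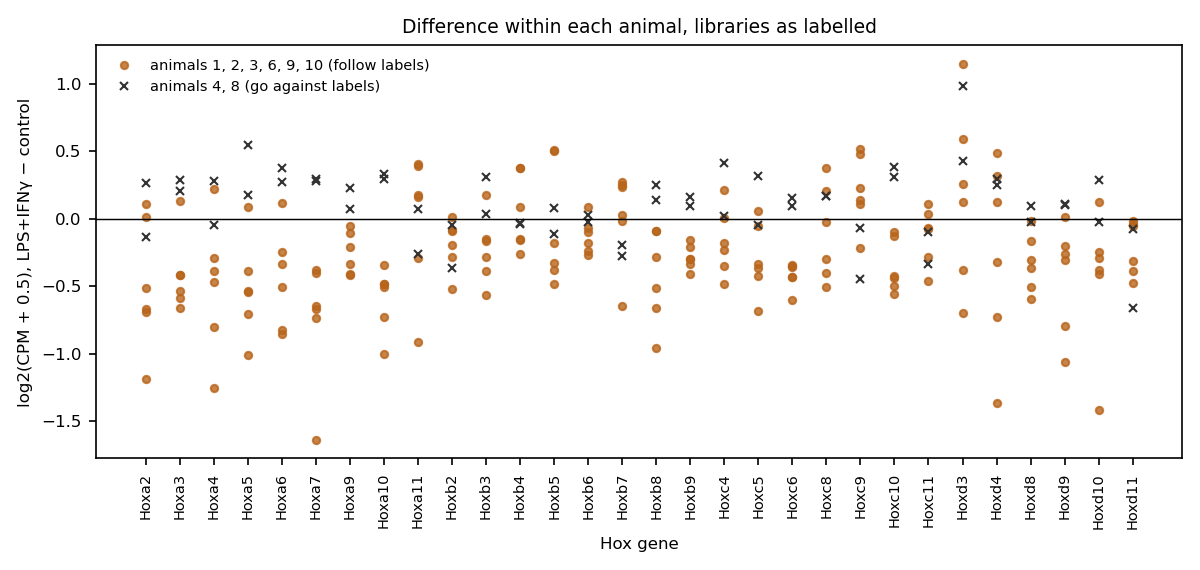
Difference in log2(CPM + 0.5) between the library labelled LPS+IFNγ and the control library of the same animal for 30 of the 31 Hox genes tested; brown points are the 6 animals that follow their labels and crosses animals 4 and 8. In Hoxa7, Hoxa10, Hoxb9, Hoxc6 and Hoxc10 all 6 points are below 0 and both crosses above.

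Some marker sums of other cell types moved with these paired differences. In all 6 animals the stimulated library was lower than the control in the podocyte sum (0.474 to 0.647 of the control), the proximal tubule sum (0.447 to 0.809), the fibroblast sum (0.600 to 0.963) and the endothelial sum (0.683 to 0.956). In animals 4 and 8 the library labelled LPS+IFNγ was at 1.35 and 1.26 times the one labelled control in the podocyte sum and at 1.35 and 1.24 times in the proximal tubule sum. The fibroblast sum stood at 1.01 and 0.950 times and the endothelial sum at 0.774 and 1.03 times, so neither was higher in both animals. The leukocyte sum was higher with the stimulus in 5 of 6 animals, the tubular epithelium and collecting duct sums in 4 of 6, and the loop and distal tubule sum in 3 of 6. Cd14, 1 of the 10 leukocyte genes, was higher in the same 5 animals. In animal 3 it made up 67.9 of 74.6 CPM with the stimulus and 25.2 of 43.9 CPM without. In animal 10 it made up 44.3 of 48.5 CPM with the stimulus and 22.6 of 33.9 CPM without. In animal 2 these values were 38.4 of 46.6 CPM and 17.7 of 39.8 CPM. In animal 6 they were 33.4 of 41.7 CPM and 17.8 of 33.5 CPM. In animal 9 they were 145.5 of 346.7 CPM and 36.75 of 344.8 CPM. The rest of the list thus did not rise in any of the 5. Between animals the sums overlapped: over the 8 stimulated and 8 control libraries that follow their label, the proximal tubule sum had a median of 184 CPM (134 to 409) with the stimulus and 258 CPM (166 to 913) without, and the podocyte sum 228 (90.2 to 312) and 391 (174 to 553). The part of cell composition in the Hox differences with the stimulus was not tested.

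The genotype comparison asks whether loss of Ptprz1 goes with another Hox pattern. No Hox gene was called between KO and het, in controls or with the stimulus, by edgeR or DESeq2; DESeq2 called 0.0137% of all genes in controls and 0% with the stimulus. In controls 0 of 31 were called and 0 had an unadjusted p under 0.05, where 0% and 3.43% of all genes did. Hoxa2 had the lowest p, with a log2 fold change of 0.72 ± 0.41 (SE), adjusted p = 0.9992 in edgeR. Hoxb8 followed with −0.39 ± 0.23 (SE), adjusted p = 0.9992, and Hoxc5 with 0.87 ± 0.53 (SE), adjusted p = 0.9992. Hoxa2 was at 1.39 ± 0.539 CPM in het and 2.29 ± 0.714 CPM in KO controls (SD, n = 5 each). With LPS+IFNγ 0 of 31 were called and 3 had an unadjusted p under 0.05, where 0% and 2.51% of all genes did. These were Hoxc9 at 0.69 ± 0.28 (SE), adjusted p = 0.9996, Hoxd10 at 0.88 ± 0.39 (SE), adjusted p = 0.9996, and Hoxd8 at 0.30 ± 0.14 (SE), adjusted p = 0.9996. Hoxc9 was at 6.01, 12.8, 10.7, 10.3 and 13.4 CPM in the het and 12.1, 16.1, 22.5, 10.2 and 24.6 CPM in the KO libraries labelled LPS+IFNγ, so the groups overlapped. The stimulus response itself did not pass as different between genotypes in any of 31 genes, where 0% of all genes did. None of the 31 had an unadjusted p under 0.05, where 0.947% of all genes had. Hoxb8 had the lowest p, with a difference of 0.50 ± 0.32 (SE), adjusted p = 0.9998. Hoxd8 followed with 0.30 ± 0.19 (SE), adjusted p = 0.9998, and Hoxa11 with 0.92 ± 0.66 (SE), adjusted p = 0.9998. The median KO minus het difference of the Hox genes in controls was 0.13 with all libraries and −0.03 without animals 1 and 9, which are both het. Without the 4 libraries that go against their label it was 0.28 in controls. Leaving out 1 library moved it to 0.05 (het control replicate 1), 0.08 (het control replicate 4 or KO control replicate 3), 0.22 (het control replicate 3) or 0.24 (het control replicate 2). With the stimulus the median was 0.21, and it was 0.35 without the 4 libraries, 0.09 without animals 1 and 9, 0.11 without het LPS+IFNγ replicate 1 and 0.40 without het LPS+IFNγ replicate 5. With these SEs, differences of the sizes above were not detectable.

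Genes that work with or control the Hox genes were present throughout. All 12 listed cofactors, the Pbx, Meis, Pknox and Tgif families whose proteins bind DNA beside Hox proteins, had a median of at least 1 CPM. In the 16 libraries that follow their label, where 10.1% of all genes were called higher and 4.88% lower, 1 of 12 rose with the stimulus in edgeR (Tgif1, a repressor of the same protein class, log2 fold change 1.01 ± 0.22 (SE), adjusted p = 0.00588) and none fell. Meis1 was low in the animals with low cluster C and D genes, at 4.82 to 11.4 CPM in animals 1 and 9 and at 17.0 to 64.6 CPM in the others. All 23 listed Polycomb and trithorax genes, whose products keep Hox genes off or on, were at a median of at least 1 CPM. Of the 23, 1 fell, near the 4.88% of all genes (Jarid2, −0.76 ± 0.16 (SE), adjusted p = 0.00425 in edgeR) and none rose. Of 18 listed genes of the retinoic acid pathway, which sets the anterior Hox genes in the embryo, 14 had a median of at least 1 CPM and 15 were tested. Of these 15, 1 fell, beside 4.88% of all genes (Dhrs3, a retinaldehyde reductase, −1.12 ± 0.25 (SE), adjusted p = 0.00729) and none rose. Of the 32 listed kidney development factors, 26 were tested and 4 called, where 15% of all genes were. Gdnf, the growth factor of ureteric bud outgrowth, rose (1.89 ± 0.31 (SE), adjusted p = 0.000615 in edgeR). Its receptor Gfra1 fell (−1.26 ± 0.27, adjusted p = 0.00563), as did Wnt4 (−1.92 ± 0.55, adjusted p = 0.0283) and Sall1 (−0.36 ± 0.12, adjusted p = 0.0481). With all 20 libraries as labelled none of these 4 lists had a called gene.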

How the data were processed

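RNA of 20 libraries of primary mouse renal tubular cells was sequenced, and each library was placed in its group and animal from its title and animal ID. The values are estimated counts per gene ID, deposited by the authors as whole numbers; Salmon 1.10.2, FastQC 0.11.9, DESeq2 1.45.3, R 4.4.1 and the build GRCm39 are listed in the submitters' processing notes. The strand setting and the step from transcripts to genes are not stated there. A directional kit was used, per the labels' protocols. Symbols and exon lengths came from GENCODE M21 (another build, so no gene coordinates), which named 51425 of 55891 IDs (92.0%). Of the Hox genes, 9 share exon bases with another gene on the same strand and 10 overlap an antisense gene, so their split is less certain.

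Counts, all whole already, were tested in R 4.3.3 with edgeR 4.0.16 (TMM, filterByExpr, robust quasi-likelihood F test, 4 group means over 20 libraries). Genes with an adjusted p (Benjamini-Hochberg, over all 14568 genes tested) under 0.05 count as called. The SE is the log2 fold change divided by the square root of F. DESeq2 1.42.0 was the second tool. The scripts were tested on simulated data. CPM are TMM-scaled; log values are log2(CPM + 0.5); per-kilobase levels use the union of exons. Members named are those with a median of at least 1 CPM, every called member, and the 3 of lowest p in each comparison. The members and lists were chosen with earlier results of these data known. Alternatives were another scaling, other filters, each library left out, and blocks; the test of the animal ID and the fits without 4 libraries or without named animals were added after the data were seen.

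The labels pair libraries by animal ID. Over 12856 genes, deviations from the group mean correlated at a median of 0.473 within the 10 animals (−0.361 to 0.666, negative in animals 4 and 8) and −0.0537 between animals. How the cultures of an animal were split is not stated, and p-values measure only the spread among these cultures, which may be technical. The 250 promoter bases and their coordinates are RefSeq's for GRCm38.p6. The values of 2 genes are not reported here, and the figures leave out 1 of them.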

Additional observations from a re-analysis of the deposited data

Results flagged for a closer look

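In groups of 5 libraries, 3 of 120 sets of values (30 expressed Hox genes in 4 groups) had 1 library far from the others by Dixon's test at the 95% level (0.71 of the range); chance gives about 1 in 20 such sets. Hoxa5 was at 13.6 CPM in the KO library labelled control of animal 8, and the nearest of the other 4 was at 17.2 CPM. Hoxa7 was at 37.1 CPM in the KO library labelled LPS+IFNγ of the same animal, against 24.7 CPM in the nearest. Both libraries go against their stimulus label on Nos2. Hoxb7 was at 49.8 CPM in the het LPS+IFNγ library of animal 9, against 29.5 CPM in the nearest of its group.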

How the results depend on the processing

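The count of Hox genes called for the stimulus depends on which libraries enter. In the mean over genotypes it was 0 with all 20 libraries, 1 without the 4 that go against their label, 5 without these and animals 1 and 9, 11 without the 4 and with the replicate block by animal ID, and 3 with DESeq2 without the 4. In het it was 6 with that block and 2 with DESeq2 without the 4. In KO it was 2 with the block and 2 without the 4 libraries and animals 1 and 9. Leaving out 1 library gave 0 to 1 in the mean, the 1 being Hoxa7 (adjusted p = 0.0390 in edgeR) without het LPS+IFNγ replicate 5, one of the 4. With the replicate number or the animal ID as a replicate block in all 20 libraries, 0 of 31 were called in every comparison fitted; same-numbered libraries share an animal in 7 of 10 pairs. The animal test called 17, and 4 without animals 1 and 9. Over 814 alternative values of the genes named for each comparison the direction held throughout; 27 of them passed the test, all in fits without some of the 4 libraries or without named animals, and 787 did not, as in the fit reported. For Hoxa7 the adjusted p ranged from 0.0011 to 0.430 in the mean over genotypes, from 0.0295 to 0.9993 in het and from 0.00196 to 1 in KO. The number of expressed genes was 31 at 0.5 CPM and 29 at 2 CPM. Hox counts were 6712 to 14146 per library, so genes near 1 CPM rest on few counts.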

Other observations

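Of 21 listed noncoding genes of the Hox clusters, 18 were in the table and 6 had a median of at least 1 CPM. The highest was Gm53, a long noncoding RNA of the B cluster, at a median of 39.2 CPM (19.5 to 58.0). Hoxb3os, antisense to Hoxb3, was at 1.46 to 2.49 CPM in animals 1 and 9 and at 0.219 to 1.40 CPM in the other 16 libraries. No label names the strand setting of the counting, so reads of Hoxb3os and Hoxb3 may not be told apart. In the 16 libraries that follow their label, Hoxb5os (log2 fold change −1.75 ± 0.31 (SE), adjusted p = 0.0013 in edgeR) and Hotairm1 (−0.59 ± 0.19, adjusted p = 0.0486) fell with LPS+IFNγ, among 7 tested, where 15% of all genes were called; with 20 libraries neither was called. Hottip and Hotair, noncoding RNAs of the posterior ends of clusters A and C, were at most 0.0547 and 0.835 CPM.

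Of the genes that flank the clusters, 12 were tested and 1 was called higher, where 10.1% of all genes were: Snx10, beyond cluster A, rose (2.36 ± 0.17 (SE), adjusted p = 1.05e-07 in edgeR) in the 16 libraries, at 30.0 to 265 CPM. Evx1 and Evx2, the homeobox genes at the posterior ends of clusters A and D, were at most 0.128 and 0.0894 CPM. The caudal genes Cdx1 and Cdx2 had no counts, and Cdx4 was at most 0.0583 CPM.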
